A study of Rattus norvegicus with 9 samples.

Results

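The chains of collagens VI and VIII were followed in RNA sequencing data from rat knees. The 6 chains were the rows of the deposited table listed as Col6a1, Col6a2, Col6a3, Col6a6, Col8a1 and Col8a2, all of which were found among the 17602 genes of the table. All 6 were above 0 TPM (transcripts counted per length and scaled to a total of 1000000 in each library) in enough libraries to be tested, as were 16512 genes in all. The data were 9 libraries from wild-type male Lewis rats of 10 to 12 weeks, 3 for each of 3 groups. The intact group was synovium, the lining tissue of the joint, from around the medial meniscus of knees with no surgery. The sham group was the same synovium collected 1 week after an operation that went no further than opening and then closing the capsule of the joint. The pMx group was the tissue that had regrown 1 week after partial meniscectomy, an operation that frees the medial meniscus at its tibial attachment and takes out its front part, and here the surrounding synovium was trimmed away. pMx and sham thus differed in surgery and in the tissue taken, and these cannot be told apart. By the quality listing of the study, RNA integrity also differed, lowest in intact, higher in sham and highest in pMx with no overlap, and its part in the results was not tested. The labels call the replicates biological, but they do not say which knees came from which rat, so the p-values measure only the spread between these samples.

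Collagen VI is a beaded-filament collagen that surrounds cells in the pericellular matrix. Its classical unit joins an alpha 1, an alpha 2 and an alpha 3 chain, encoded by Col6a1, Col6a2 and Col6a3, and the chains encoded by Col6a4, Col6a5 and Col6a6 are thought to take the place of alpha 3 in other assemblies. Collagen VIII is a short-chain collagen that forms hexagonal networks under endothelial layers and in vessel walls, and its chains are encoded by Col8a1 and Col8a2. In the meniscus and in cartilage, collagen VI marks the capsule around each chondrocyte.

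Of the 6 chains, 5 were higher and 1 was lower in pMx than in sham, and the lower one was Col6a6. Col8a2 had the largest increase, 5.01 times the mean TPM of the sham group, followed by Col6a3 at 3.59 times. Col6a6 was 3.55 times lower in pMx than in sham. From intact to sham, the 3 classical collagen VI chains and Col8a2 were higher by an adjusted p below 0.05, as were 6.73% of all genes tested, and none of the 6 chains was lower. A differentially expressed gene (DEG) here had an adjusted p below 0.05 from limma with Benjamini-Hochberg adjustment over all genes tested and an absolute log2 fold change above 1, computed on log2(TPM + 1). By that rule all 6 chains were DEGs in pMx versus sham, where 8.21% of all genes tested were. In the same comparison 3.36% of all genes were higher DEGs and 4.85% were lower DEGs. In sham versus intact 3 of the 6 chains were DEGs, all higher, where 1.96% of all genes were DEGs and 1.42% were higher ones. In pMx versus intact 5 chains were higher DEGs and 1 was a lower one, where 14.3% of all genes were DEGs, 6.4% higher and 7.89% lower.

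**Figure D1:**
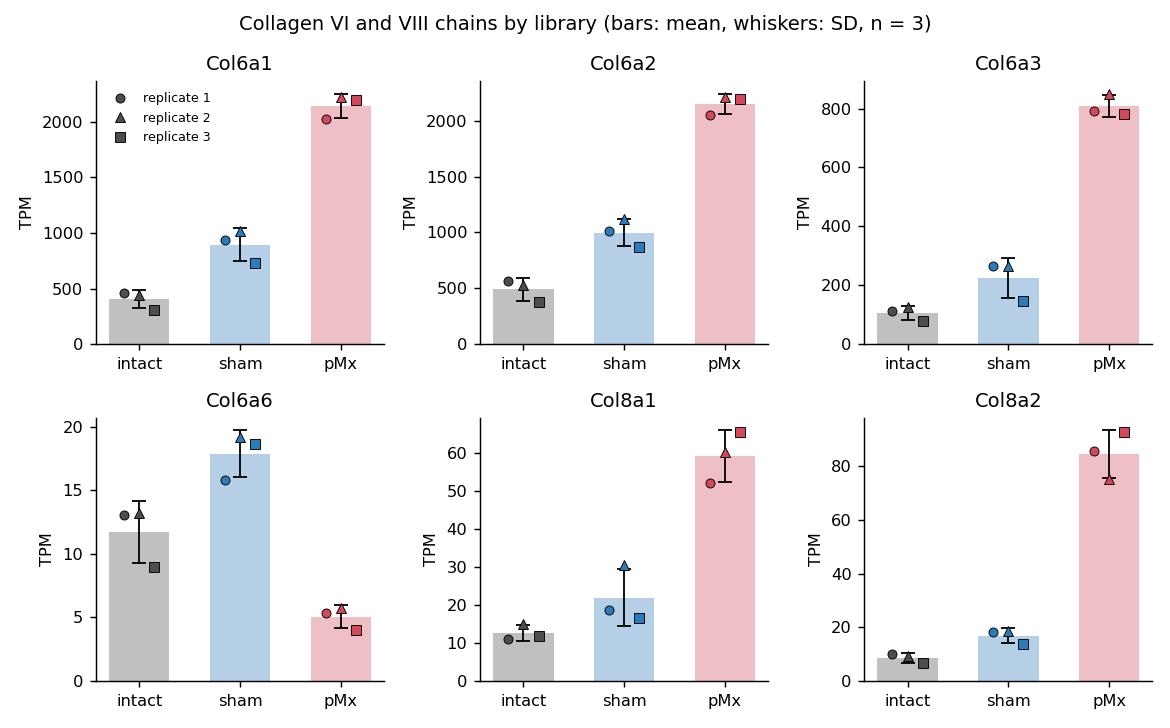
TPM of the 6 chains in each of the 9 libraries, by group; bars are group means, whiskers are SD (n = 3), and symbols mark the replicates. In 5 panels the pMx libraries lie above all others, and in the Col6a6 panel the pMx libraries, at 4.02 to 5.76 TPM, lie below all others.

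The stretches of DNA just before the transcription start are shown for 4 chains, those with a match to the motifs named below. Of these chains, Col6a1, Col8a1 and Col8a2 were higher and Col6a6 was lower in pMx than in sham. Col6a3 and Col6a2 were also higher but are not shown. Col6a3 held no match, and Col6a2 had no entry among the promoters used. Each is the 250 bases before the start, 5′ to 3′ on the gene's own strand, from RefSeq with the rat build GRCr8. The deposited values were made on the build mRatBN7.2, so these positions do not apply to them. The stretches are chr20:11905440-11905689 (plus strand) for Col6a1, chr11:56246532-56246781 (plus) for Col8a1, chr5:143870519-143870768 (plus) for Col8a2 and chr8:115352162-115352411 (minus) for Col6a6. Capitals mark matches, on either strand, to any of 6 motifs. These were the TATA box, searched as TATAAA, the box named after its letters CCAAT, the GC box, searched as GGGCGG, the AP-1 site, searched as TGANTCA, the TEAD site, searched as GGAATG, and the E-box, searched as CAGCTG.
Col6a1: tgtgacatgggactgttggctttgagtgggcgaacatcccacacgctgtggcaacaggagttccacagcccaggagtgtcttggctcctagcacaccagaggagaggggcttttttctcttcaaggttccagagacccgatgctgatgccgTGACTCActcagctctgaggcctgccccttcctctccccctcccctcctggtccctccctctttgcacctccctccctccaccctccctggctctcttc
Col8a1: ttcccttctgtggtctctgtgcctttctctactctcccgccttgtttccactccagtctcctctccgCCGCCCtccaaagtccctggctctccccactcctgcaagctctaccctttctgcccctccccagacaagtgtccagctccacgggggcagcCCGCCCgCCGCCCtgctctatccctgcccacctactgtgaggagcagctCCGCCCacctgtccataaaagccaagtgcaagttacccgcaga
Col8a2: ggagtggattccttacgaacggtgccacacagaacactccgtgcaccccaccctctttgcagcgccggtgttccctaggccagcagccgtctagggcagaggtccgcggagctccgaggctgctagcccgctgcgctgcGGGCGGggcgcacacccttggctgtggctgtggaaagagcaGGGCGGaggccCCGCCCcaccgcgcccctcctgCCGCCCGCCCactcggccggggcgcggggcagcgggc
Col6a6: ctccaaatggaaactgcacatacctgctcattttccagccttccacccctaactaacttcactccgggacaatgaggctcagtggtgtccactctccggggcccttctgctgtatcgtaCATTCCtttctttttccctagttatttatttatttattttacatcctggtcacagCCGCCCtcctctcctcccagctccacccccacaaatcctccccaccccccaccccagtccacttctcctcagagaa
The Col6a1 stretch held 1 AP-1 match, 99 to 93 bases before the start, a motif found in 6.36% of 27457 rat promoters of this length. Col8a1 held 4 GC box matches and Col8a2 held 5, of which the last 2 overlap, and a GC box was found in 32.4% of all promoters. Col6a6 held 1 GC box match and 1 TEAD match, the latter found in 11.8% of all promoters. The G and C content was 73.2% for Col8a2, 62.0% for Col8a1, 60.0% for Col6a1 and 51.6% for Col6a6, where the median of all promoters was 52.0%. The stretch of Col6a3 held no match to the 6 motifs, of which the TATA, CCAAT and E-box letters were found in 13.1%, 34.3% and 11.9% of all promoters. These are matches of letters in one window and were not tested for binding.

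Col6a1 encodes the alpha 1 chain. Its TPM in replicates 1, 2 and 3 was 460.58, 441.24 and 311.11 for intact, 937.09, 1013.35 and 730.04 for sham and 2021.27, 2221.73 and 2190.37 for pMx. The groups did not overlap, and the order was intact, sham and pMx. Against sham, pMx was higher by 1.27 on the log2 scale (SE 0.17, limma adjusted p = 0.000608). Groups without overlap were common, at 56.1% of all genes tested between pMx and sham and 30.6% between sham and intact.

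Col6a2 encodes the alpha 2 chain and lies next to Col6a1 in the rat RefSeq annotation. Its TPM was 566.9, 528.15 and 375.97 in intact, 1010.31, 1117.69 and 870.47 in sham and 2047.95, 2211.76 and 2197.05 in pMx. It had the smallest increase of the 5 higher chains in pMx versus sham, 1.11 on the log2 scale (SE 0.16, limma adjusted p = 0.000828). Col6a1 and Col6a2 were among the most abundant transcripts of the regenerative tissue, with ranks of 75 and 73 by mean TPM among the 16512 genes tested. In intact synovium their ranks were 340 and 274.

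Col6a3 encodes the alpha 3 chain, whose far end is cut off after secretion to give the fragment endotrophin. Its TPM was 112.8, 127.2 and 79.25 for intact, 264.99, 264.83 and 145.74 for sham and 790.34, 850.79 and 781.22 for pMx. Sham replicate 3 thus lay well below the other sham libraries, while the pMx libraries lay close together. On the log2 scale pMx exceeded sham by 1.89 (SE 0.25, limma adjusted p = 0.000568) and exceeded intact by 2.94 (limma adjusted p = 2.47e-05). Among the 44 collagen chain genes of the table, Col6a3 moved from the 12th highest mean TPM in intact to the 9th in pMx.

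Col6a6 encodes the alpha 6 chain, one of the longer chains that resemble alpha 3. It was low in every library, at 13.08, 13.18 and 8.93 TPM in intact, 15.81, 19.23 and 18.65 TPM in sham and 5.34, 5.76 and 4.02 TPM in pMx. The level was thus highest in sham and lowest in pMx. In pMx versus sham it fell by 1.65 on the log2 scale (SE 0.17, limma adjusted p = 0.000188), the third largest decrease among the collagen chain genes. In pMx versus intact it fell by 1.07, and in sham versus intact the log2 fold change of 0.58 did not pass the test (95% confidence interval 0.19 to 0.98, adjusted p = 0.0589 from limma). The decrease against intact missed the fold-change threshold without intact replicate 1, intact replicate 2 or pMx replicate 3, at -0.99, -0.98 and -0.94, with adjusted p of at most 0.00439 in these 3 fits.

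Markers of other cell types were also lower in pMx than in sham. All 8 adipocyte markers were lower DEGs in pMx versus sham, as were 4.85% of all genes tested. Their summed TPM was 3444 to 7579 in intact, 4668 to 5122 in sham and 345 to 532 in pMx. Most of that sum was Fabp4, at a mean of 3485 TPM in sham and 355 TPM in pMx. The log2 fold changes of the 8 adipocyte markers ranged from -7.36 to -2.29. Of 8 Schwann cell markers, 7 passed the test and were lower in pMx than in sham, as were 18.9% of all genes tested. The summed TPM of the 8 was 565 to 867 in intact, 639 to 779 in sham and 292 to 308 in pMx. Their part in the decrease of Col6a6 was not tested. In such bulk samples fewer cells of a type and less RNA per cell cannot be told apart.

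Col8a1 encodes the alpha 1 chain of collagen VIII. Its TPM was 10.96, 14.84 and 11.74 in intact, 18.59, 30.41 and 16.66 in sham and 51.98, 60.07 and 65.36 in pMx. Sham replicate 2 stood above the other sham libraries and gave this group a coefficient of variation of 34.0%. The increase from sham to pMx was 1.43 on the log2 scale (SE 0.21, limma adjusted p = 0.00105), and no pMx library overlapped with the other groups.

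Col8a2 encodes the alpha 2 chain of collagen VIII. Its TPM was 10.17, 9.18 and 6.54 in intact, 18.32, 18.71 and 13.62 in sham and 85.66, 75.3 and 92.86 in pMx. Every pMx library was thus at more than 4 times the highest sham library. The increase over sham was 2.27 on the log2 scale (SE 0.17, limma adjusted p = 4.80e-05), the fourth largest of the collagen chain genes and the 36th largest of all genes tested. By mean TPM it moved from rank 9247 of 16512 in intact to rank 6626 in sham and rank 1656 in pMx.

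Markers of fibroblasts and of fibrocartilage also differed between pMx and sham. Of 10 synovial fibroblast markers 3 passed the test as higher and 4 as lower, where 17.7% and 18.9% of all genes tested did. The summed TPM of the 10 was 3577 to 4763 in intact, 4068 to 4880 in sham and 9624 to 10426 in pMx. Most of that difference was Lum, also a matrix partner of collagen VI, without which the sum was 2280 to 2686 TPM in sham and 2583 to 3273 TPM in pMx, with an overlap. Prg4, the lubricin gene, was at 2100 to 2986 TPM in intact and 1245 to 1451 TPM in sham. In pMx it was at 1084 to 1738 TPM and did not pass the test against sham (limma adjusted p = 0.680). The 4 lower markers, Clic5, Vcam1, Pi16 and Dpp4, were all DEGs. Their mean TPM was 239, 115, 124 and 7.66 in sham and 13.1, 34.8, 33.5 and 0.747 in pMx. The 3 higher markers were Thy1, Cdh11 and Lum. Of 8 fibrocartilage markers 4 were higher and 1 was lower, where 17.7% and 18.9% of all genes tested were. Their summed TPM was 306 to 870 in intact, 549 to 633 in sham and 1005 to 1205 in pMx. Most of it was Comp, at a mean of 512 TPM in sham and 840 TPM in pMx, which did not pass the test (limma adjusted p = 0.0865). The lower marker was Cilp (log2 fold change -0.65). Chad, at 1.43 to 42.97 TPM in sham and 0.08 to 0.23 TPM in pMx, did not pass the test. Acan, the aggrecan gene, was at 32.52, 26.38 and 6.84 TPM in sham and at 205.01, 182.29 and 236.05 TPM in pMx, and Sox9, a transcription factor of cartilage, was at 0.55 to 1.23 TPM in sham and 4.55 to 5.92 TPM in pMx. Both were higher DEGs (log2 fold changes 3.43 and 1.68, limma adjusted p = 0.00136 and 7.92e-05). Col2a1, the defining collagen of hyaline cartilage, was at 0.14 to 2.26 TPM in sham and 0.56 to 0.89 TPM in pMx and did not pass the test. The part of these cells in the increase of the 5 chains was not tested.

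**Figure D2:**
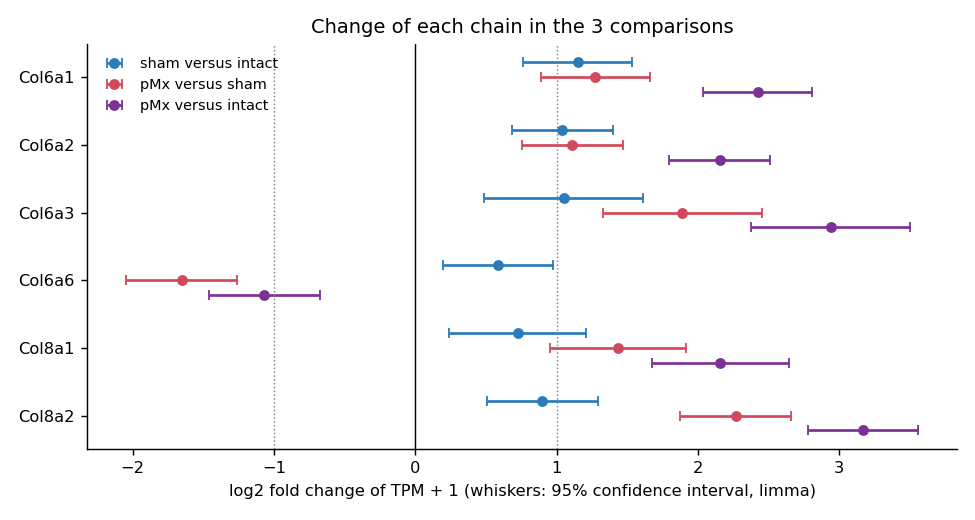
Fitted log2 fold change of TPM + 1 for each chain in the 3 comparisons, with 95% confidence intervals from limma; dotted lines mark a change of 1 in either direction. For Col6a6 the intervals of pMx versus sham and pMx versus intact lie below 0, and all other intervals lie above 0.

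Sham surgery alone was examined by comparing sham with intact synovium. Col6a1 had 2.21 times the mean TPM of intact in sham, or 1.15 more on the log2 scale (SE 0.17, limma adjusted p = 0.00639). Col6a2 and Col6a3 followed at 1.04 and 1.05 (adjusted p = 0.00704 and 0.0297 from limma), just past the fold-change threshold. Col8a2 rose by 0.90 (adjusted p = 0.0149 from limma), short of that threshold. Col8a1 had a log2 fold change of 0.72 that did not pass the test (95% confidence interval 0.24 to 1.21, adjusted p = 0.0587 from limma). The comparisons of pMx with sham and of sham with intact use the same sham libraries, so these values stand side by side and were not set against each other.

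The sham versus intact calls rested on few libraries. Intact replicate 3 held 37285 TPM of 8 skeletal muscle markers, such as Acta1 and Ckm, against 52.6 and 167 in the other intact libraries, 192 to 2430 in sham and 75.9 to 2508 in pMx. It also had the lowest TPM of Col6a1, Col6a2, Col6a3, Col6a6 and Col8a2 in its group. Without it, the log2 fold changes of Col6a1, Col6a2 and Col6a3 in sham versus intact were 0.97, 0.86 and 0.85, so that none of the 6 chains was a DEG, and the adjusted p stayed at or below 0.0461. Without sham replicate 2 only Col6a1 was a DEG. The call of Col6a3 was lost without sham replicate 1, sham replicate 2 or pMx replicate 1 (adjusted p = 0.0979, 0.106 and 0.0504 from limma), and in a fit on the 6 libraries of the comparison (adjusted p = 0.0898). Col8a2, which was not a DEG with all libraries, had an adjusted p above 0.05 without sham replicate 1 or sham replicate 2 (0.0590 and 0.0624 from limma) and in the fit on 6 libraries (0.0572), and it became a DEG without intact replicate 1 or sham replicate 3 (log2 fold changes 1.02 and 1.04). In pMx versus sham, by contrast, all 6 chains were DEGs whichever of the 9 libraries was left out. All 8 muscle markers failed the test in both comparisons. Their intervals were wide, such as -6.34 to 5.66 for the log2 fold change of Acta1 in pMx versus sham, so this does not show equal levels.

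Since TPM is scaled per length, the levels of different chains were set side by side within a library. RNA integrity differed between the groups, and its part in these ratios was not tested. The ratio of Col6a2 to Col6a1 was 1.23, 1.20 and 1.21 in intact, 1.08, 1.10 and 1.19 in sham and 1.01, 0.996 and 1.00 in pMx. Col6a2 therefore lay above Col6a1 in every intact and sham library, whereas in pMx the chains did not differ beyond the spread of the libraries. The mean ratio was 1.12 ± 0.0601 in sham and 1.00 ± 0.00888 in pMx (SD, n = 3 each; exact permutation test, 2-sided, p = 0.1, below which 3 libraries against 3 cannot go).

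The ratio of Col6a3 to Col6a1 was 0.245, 0.288 and 0.255 in intact, 0.283, 0.261 and 0.200 in sham and 0.391, 0.383 and 0.357 in pMx. Alpha 3 transcripts were thus the scarcest of the classical chains in every library, and less so in the pMx group, whose mean was 0.377 ± 0.0180 against 0.248 ± 0.0432 in sham (SD, n = 3 each; exact permutation test, p = 0.1). Sham and intact overlapped in this ratio (exact permutation test, p = 0.8). Col6a6, relative to Col6a3, stood at 0.111 ± 0.00639 in intact, 0.0867 ± 0.0363 in sham and 0.00622 ± 0.000934 in pMx (SD, n = 3 each), so that the mean ratio was 13.9 times lower in pMx than in sham (exact permutation test, p = 0.1). The sham libraries were spread widely in it, at 0.0597, 0.0726 and 0.128.

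The collagen VIII chains changed places. Col8a1 was the higher of the pair in all 6 intact and sham libraries, with Col8a2 to Col8a1 ratios of 0.928, 0.619 and 0.557 in intact and 0.985, 0.615 and 0.818 in sham. In the pMx libraries the ratios were 1.65, 1.25 and 1.42, so Col8a2 was the higher chain in each. The mean was 1.44 ± 0.198 in pMx and 0.806 ± 0.185 in sham (SD, n = 3 each; exact permutation test, p = 0.1). Intact and sham overlapped (exact permutation test, p = 0.6).

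**Figure D3:**
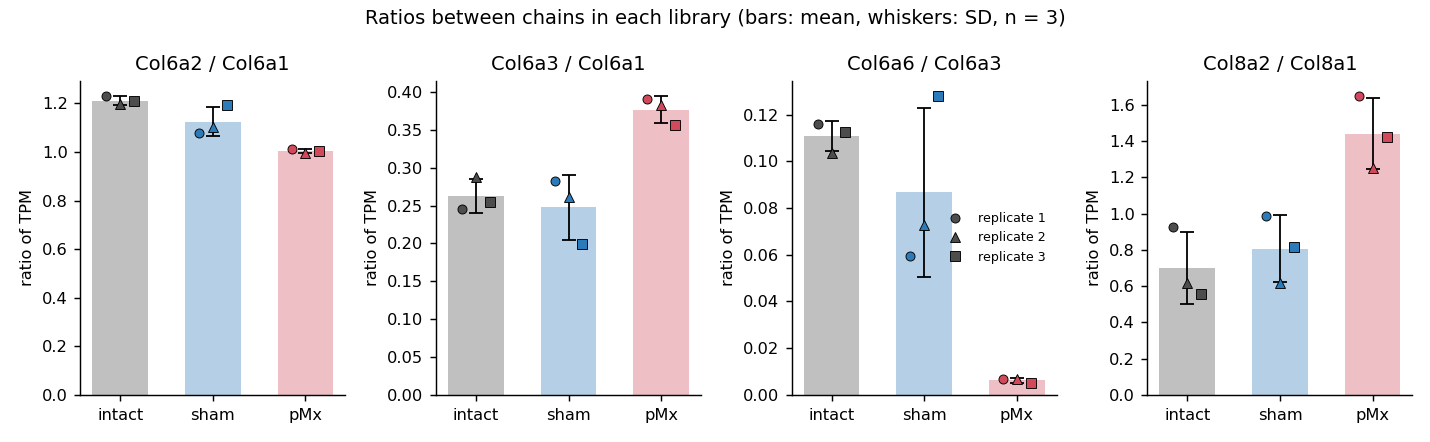
Ratio of TPM between pairs of chains in each library; bars are group means, whiskers are SD (n = 3), and symbols mark the replicates. In pMx the Col6a2 to Col6a1 ratio closed to 1.00, the Col6a6 to Col6a3 ratio was 0.00622 and the Col8a2 to Col8a1 ratio was above 1 in every library.

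The summed TPM of Col6a1, Col6a2 and Col6a3 was 1001 ± 204 in intact, 2118 ± 335 in sham and 5104 ± 220 in pMx (SD, n = 3 each). Its share of the TPM of all 44 collagen chain genes was nevertheless smaller in the operated knees, at 10.5% ± 0.380 in intact, 9.29% ± 0.398 in sham and 8.42% ± 0.325 in pMx (SD, n = 3 each). These shares did not overlap between any 2 groups (exact permutation test, p = 0.1 for each pair). Sham and pMx came close, with sham replicate 3 at 8.84% and pMx replicate 3 at 8.77%. Collagen VIII, at a summed 38.8 ± 9.56 TPM in sham and 144 ± 12.6 TPM in pMx, made up 0.169% ± 0.0214 of the collagen TPM in sham and 0.238% ± 0.0279 in pMx (SD, n = 3 each; exact permutation test, p = 0.1). In intact its share was 0.225% ± 0.0355 (SD, n = 3), which overlapped with both other groups. Of the 24 exact permutation tests run on such sums, shares and ratios, 19 gave this smallest p of 0.1, which is 0.126 after Benjamini-Hochberg adjustment over the 24.

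The libraries of a group differed from each other in a similar way for Col6a1, Col6a2, Col6a3 and Col8a2, and less so for Col6a6 and Col8a1. After the group means were removed on the log2 scale, the deviations of Col6a1 and Col6a2 over the 9 libraries had a Pearson correlation of 0.98, those of Col6a1 and Col6a3 of 0.91 and those of Col6a1 and Col8a2 of 0.89. The highest value of Col6a6 with any chain was 0.61, with Col6a2, and that of Col8a1 was 0.57, with Col6a3. Col6a6 and Col8a1 were least alike, at 0.13. The points share libraries, a fixed TPM total and few degrees of freedom, and these are descriptions without a test. The spread was smallest in pMx for the classical collagen VI chains, with coefficients of variation of 5.03%, 4.21% and 4.68% against 16.4%, 12.4% and 30.6% in sham for Col6a1, Col6a2 and Col6a3.

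The other collagen VI chains and the other short-chain network collagen of the table were described as a fixed list. Col6a5, which lies next to Col6a6 in the rat RefSeq annotation and encodes the alpha 5 chain, was at 2.68, 2.96 and 1.48 TPM in intact, 1.54, 1.46 and 1.45 TPM in sham and 0.3, 0.3 and 0.24 TPM in pMx. It fell by 0.96 in pMx versus sham on the log2(TPM + 1) scale (limma adjusted p = 0.00185), a scale that understates the change of genes near 1 TPM. Col6a4, on the far side of Col6a5, stayed between 0.08 and 0.66 TPM and did not pass the test in pMx versus sham (adjusted p = 0.0525 from limma). Col10a1, a marker of hypertrophic cartilage, was listed at 0 TPM in all sham libraries and in 2 of the 3 pMx libraries. The alpha 4, alpha 5 and alpha 6 chains are alike in sequence, and how the authors' counting divided reads between such genes is not given in the sources used here.

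Among the other 38 collagen chain genes, 11 were higher and 5 were lower DEGs in pMx versus sham, against 3.36% and 4.85% of all genes tested. The median log2 fold change of these 38 was 0.29, that of the 6 chains was 1.35 and that of all genes tested was -0.01. The changes of the collagen VI and VIII chains lay inside the range of this family, which ran from -2.90 for Col28a1 to 3.63 for Col12a1.

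**Figure D4:**
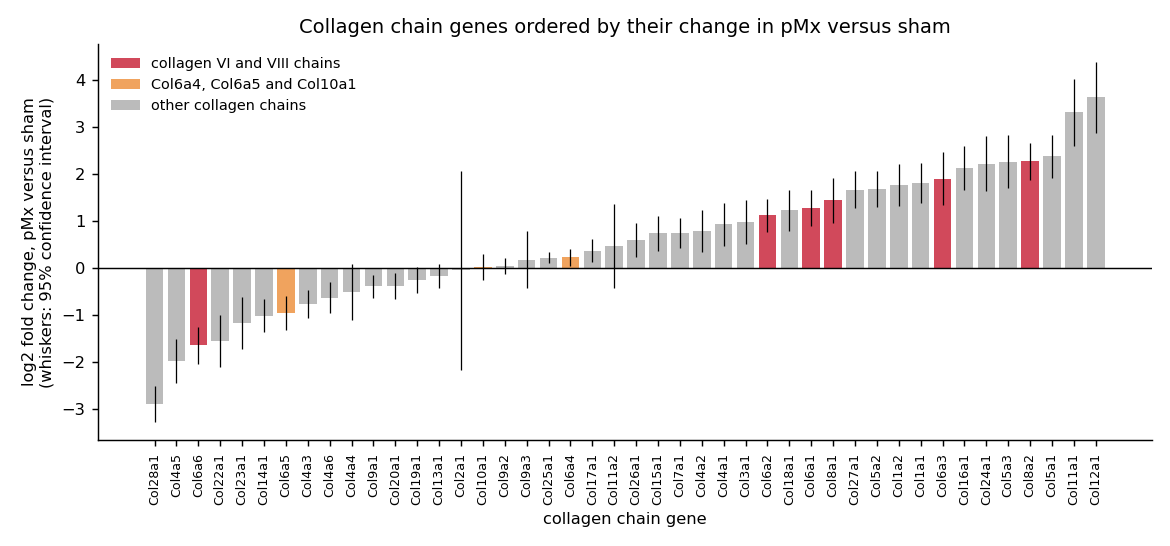
Log2 fold change in pMx versus sham of the 44 collagen chain genes, ordered by size, with 95% confidence intervals from limma. The 5 higher collagen VI and VIII chains lie between 1.11 and 2.27 in the right part of the plot, and Col6a6, at -1.65, lies near the left end with Col6a5 at -0.96.

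Collagens VI and VIII are held and sensed by receptors at the cell surface. A list of 12 receptors was tested, not all of them particular to these collagens. In pMx versus sham 4 were higher and 4 were lower by an adjusted p below 0.05 (17.7% and 18.9% of all genes tested), and the median log2 fold change was -0.00. Itga11, the alpha 11 integrin subunit, which pairs with beta 1 and binds fibrillar collagens, was the single higher DEG. It rose from 19.3 to 26.1 TPM in sham to 129 to 144 TPM in pMx (2.51 on the log2 scale, SE 0.16, limma adjusted p = 2.99e-05). Ddr2, a receptor tyrosine kinase for collagen, was the single lower DEG, at 101 to 130 TPM in sham and 49.1 to 56.3 TPM in pMx (log2 fold change -1.13). The anthrax toxin receptors, both of which bind collagen VI, moved in opposite directions. Antxr1 was at 57.9, 57.93 and 41.39 TPM in intact, 86.52, 102.28 and 87.19 TPM in sham and 159.38, 178.79 and 159.94 TPM in pMx. Its log2 fold changes were 0.81 in sham versus intact and 0.85 in pMx versus sham (limma adjusted p = 0.00966 and 0.00144). Antxr2, which takes up collagen VI from the matrix, was at 71.62, 72.59 and 71.53 TPM in sham and at 47.07, 49.67 and 45.9 TPM in pMx, and fell by 0.59 (adjusted p = 0.00386 from limma).

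Itgb1, the common beta 1 integrin subunit, rose by 0.63 in pMx versus sham (limma adjusted p = 0.00165). Itga1, a collagen-binding alpha subunit, fell by 0.65 from intact to sham (limma adjusted p = 0.0143), whereas its difference of -0.34 between pMx and sham did not pass the test (limma adjusted p = 0.0604). Itga3 fell by 0.94 in pMx versus sham and by 1.46 in pMx versus intact, where it was a DEG. Cspg4 (NG2), a membrane proteoglycan that binds collagen VI, was at 37.99, 30.87 and 29.96 TPM in sham and at 39.64, 44.59 and 42.29 TPM in pMx, with a log2 fold change of 0.35 that did not pass the test (adjusted p = 0.102 from limma).

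Of the 16 genes listed as matrix partners of collagen VI, 14 were in the table, among them Has2. That gene encodes an enzyme rather than a matrix protein, and it is counted among the higher genes below. In pMx versus sham 11 were higher and 2 were lower by an adjusted p below 0.05, against 17.7% and 18.9% of all genes tested, with a median log2 fold change of 0.94. Of these, 5 of the higher and 1 of the lower genes were DEGs, against 3.36% and 4.85% of all genes. The higher DEGs were the small leucine-rich proteoglycans Fmod (log2 fold change 1.40) and Lum (1.70), the matrilin Matn2 (1.45), the basement membrane proteoglycan perlecan, Hspg2 (1.13), and versican, Vcan (1.48). Decorin and biglycan, the small proteoglycans that bind collagen VI, differed in direction. Dcn was at 4172 to 4956 TPM in sham and 2187 to 2640 TPM in pMx (log2 fold change -0.94, limma adjusted p = 0.000994). Bgn was at 2117 to 2288 TPM in sham and 3803 to 4087 TPM in pMx (log2 fold change 0.84, limma adjusted p = 0.00123). Col14a1, a fibril-associated collagen, was the lower DEG, at -1.02. In sham versus intact 8 of the 14 were higher by an adjusted p below 0.05 (6.73% of all genes tested), and Bgn, Lum, Matn4 and Vcan were DEGs, with log2 fold changes of 1.01, 1.90, 1.43 and 1.36. In pMx versus intact 11 of the 14 were higher DEGs (6.4% of all genes tested) and none was a lower one. Those not yet given with a value were the matrilin Matn3 (log2 fold change 1.91), the von Willebrand factor A domain protein Vwa1 (1.39), the hyaluronan synthase Has2 (1.19) and the basement membrane protein nidogen 1, Nid1 (1.11).

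Of 6 proteases that cut collagen VI or the tail of its alpha 3 chain, 3 were higher and none was lower by an adjusted p below 0.05 in pMx versus sham, where 17.7% and 18.9% of all genes were. Mmp14, a membrane-bound collagenase, was the one DEG, at 445 to 697 TPM in sham and 1441 to 1639 TPM in pMx (log2 fold change 1.46, limma adjusted p = 0.000613). Bmp1, a procollagen proteinase that also trims alpha 3, rose by 0.88 (limma adjusted p = 0.000341), and Mmp2 rose by 0.78. Furin, the proprotein convertase, was at 60.3 to 67.8 TPM in sham and 72.0 to 76.9 TPM in pMx and did not pass the test (log2 fold change 0.26, adjusted p = 0.0565 from limma). In sham versus intact 5 of the 6 were higher (6.73% of all genes tested), and Mmp2, Mmp9, Mmp11 and Mmp14 were DEGs, with log2 fold changes of 1.15, 2.62, 2.29 and 1.45. Mmp9 varied widely within sham, from 3.14 to 32.3 TPM.

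**Figure D5:**
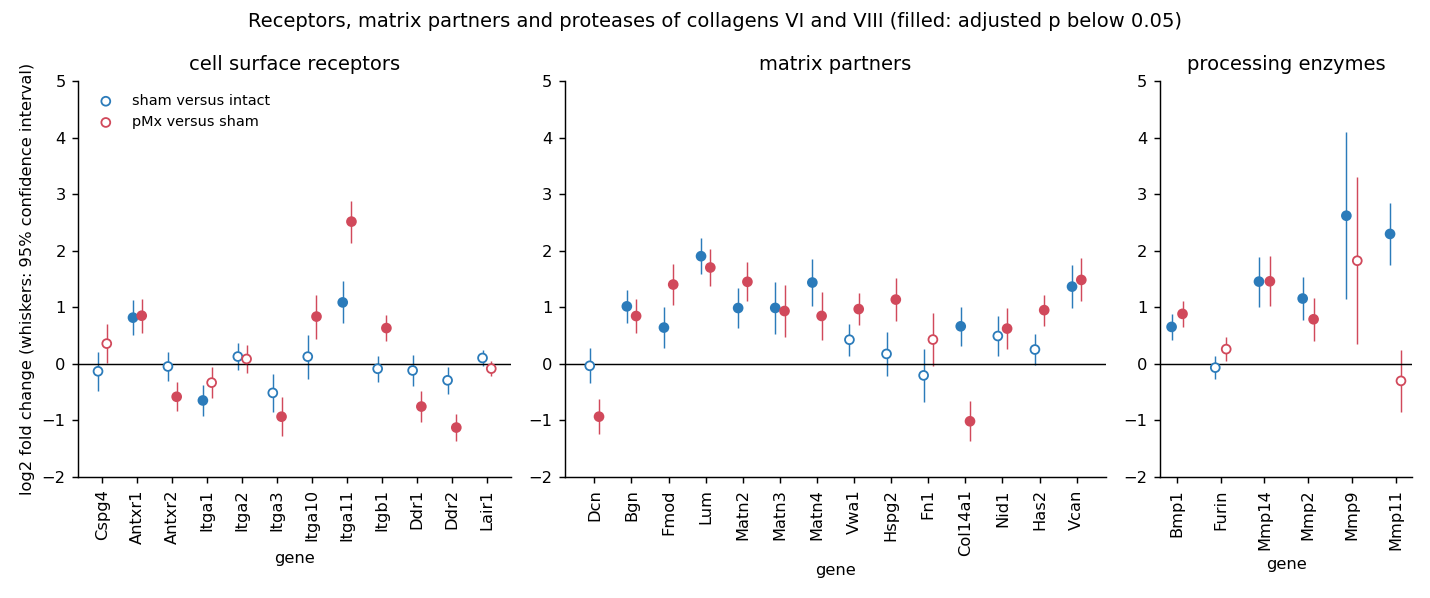
Log2 fold changes of the listed receptors, matrix partners and proteases in sham versus intact (blue) and pMx versus sham (red), with 95% confidence intervals from limma; filled points have an adjusted p below 0.05. Antxr1 lies above 0 and Antxr2 below 0 in pMx versus sham, and 11 of the 14 matrix partners have filled points above 0.

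The genes whose log2(TPM + 1) was most like that of each chain were ranked over the 9 libraries among 13198 genes with a mean of at least 1 TPM. For Col6a1 these were Mcrip1, Col5a2 and Arf6 (Pearson correlation 0.998 each). Col6a2 was most like Aldh1l2, Lrrc17 and Arf6 (0.998 each), and Col6a3 was most like Col5a3 (0.999), Igsf10 (0.998) and Mcm3 (0.997). For Col8a1 the nearest genes were Pkmyt1, Aurkb and Smpdl3b (0.994 each) and for Col8a2 Arhgef19, Surf4 and Mcm6 (0.999 each). Col6a6 was matched less closely, by Polr2i (0.987), Ctla2a (0.985) and Bdh2 (0.982). Ctla2a had mean TPM of 26.0 in intact, 34.6 in sham and 13.3 in pMx. The libraries fall into 3 groups of 3, so these correlations mostly follow the order of the group means, and they carry no test.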

How the data were processed

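RNA from 9 tissue samples was sequenced by BGI after capture of mRNA with oligo-dT beads, and groups and replicate numbers were taken from the sample titles. The authors deposited TPM values with 2 decimals, computed from the reads in Dr. Tom, and each library summed to 1000000. HISAT2 2.0.4 and the build mRatBN7.2 are named in the submitters' processing notes, while the counting tool and annotation are not given in the sources used here. TPM keeps no read numbers, so the depth is unknown and the precision is the spread between the 3 libraries of a group.

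From the deposited TPM, genes with a TPM above 0 in 3 or more libraries were kept and their log2(TPM + 1) was fitted in limma 3.58.1 (R 4.3.3), with 1 mean per group over all 9 libraries, eBayes with a trend and Benjamini-Hochberg adjustment over all genes of a comparison. The DEG thresholds were those of the study. The calculation was tested on simulated data. Sums, shares and ratios were compared with exact permutation tests in SciPy 1.17.1. Figures were drawn with Matplotlib 3.10.9 under Python 3.11.15. The genes named were the 6 chains, the 3 genes most like each of them, every DEG of the receptor, partner and protease lists in any comparison, the receptors Antxr1, Antxr2, Cspg4, Itgb1 and Itga1, and the related chains Col6a4, Col6a5 and Col10a1. Dcn, Furin, Acta1, Ckm, Col12a1 and Col28a1 were named after their values were seen. So were the markers Prg4, Clic5, Vcam1, Pi16, Dpp4, Thy1, Cdh11, Acan, Sox9, Comp, Chad, Cilp, Col2a1, Fabp4, Cd68, Cd163, C1qa and C1qb. Marker lists covered synovial fibroblasts, fibrocartilage, endothelium, smooth muscle and pericytes, skeletal muscle, adipocytes, macrophages and Schwann cells. The chains, lists and tests were chosen with earlier results of these data known. As alternatives, the pseudocount was set to 0.1, the filter was dropped or replaced by a mean of at least 1 TPM, libraries were rescaled by the median of ratios, and fits were made with the 6 libraries of a comparison, with the replicate number as a block, with an adjusted p alone and with each library left out in turn.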

Additional observations from a re-analysis of the deposited data

How the results depend on the processing

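All 6 chains were DEGs in pMx versus sham under the main settings and under every alternative run, and the log2 fold changes of Col6a2, the closest to the threshold, ranged from 1.02 to 1.20. In sham versus intact 3 chains were DEGs in the main fit, between 0 and 4 with each library left out in turn (0 without intact replicate 3, 1 without sham replicate 2) and 2 in the fit on the 6 libraries of the comparison. In pMx versus intact the count was 6, or 5 to 6 with each library left out in turn. Direction never changed for any chain in any comparison. Whether the replicate number pairs the libraries is not stated, and the values here do not decide it. The deviations of same-numbered libraries had correlations across genes of 0.03, 0.37 and 0.48 between pMx and sham. Between sham and intact these were 0.00, -0.40 and -0.49. Replicates 2 and 3 of pMx were most like the sham library of the same number, whereas pMx replicate 1 was most like sham replicate 2. A fit that took this number as a replicate block gave the same DEG counts of the chains as the fit without it, 6, 3 and 6 in pMx versus sham, sham versus intact and pMx versus intact, and the adjusted p of Col8a1 in sham versus intact from limma passed the threshold, at 0.0464. It also passed with a minimum mean of 1 TPM (0.0449), with median-of-ratios rescaling (0.0429) and without sham replicate 3 (0.0463), and ranged from 0.0429 to 0.132 over all 15 alternatives. That of Col6a6 in the same comparison passed with the minimum mean (0.0434) and the rescaling (0.0286). Over all genes, a pseudocount of 0.1 raised the DEGs from 1355 to 2229 in pMx versus sham and from 323 to 612 in sham versus intact, and leaving out sham replicate 2 lowered the latter to 193. With an adjusted p alone there were 6046, 2097 and 8350 genes and 6, 4 and 6 chains. TPM holds no depth, so levels near 0 such as those of Col6a4 and Col10a1 have no detection limit here.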

Other observations

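The remaining marker lists give the tissue context of these chains in pMx versus sham. None of the 8 endothelial markers was higher and 4 were lower, none of the 8 smooth muscle and pericyte markers was higher and 3 were lower, and of the 7 macrophage markers found, a single one was higher and 2 were lower (adjusted p below 0.05 from limma), where 17.7% of all genes tested were higher and 18.9% were lower. The summed TPM of the endothelial list was 758 to 802 in sham and 585 to 744 in pMx, that of the smooth muscle and pericyte list was 2707 to 3014 in sham and 1695 to 1783 in pMx, and that of the macrophage list was 1544 to 1606 in sham and 1042 to 1458 in pMx. Most of the macrophage sum was C1qa and C1qb, at means of 659 and 454 TPM in sham and 522 and 291 TPM in pMx. C1qa did not pass the test (limma adjusted p = 0.227). The higher macrophage marker was Cd68 (log2 fold change 0.47, limma adjusted p = 0.0428), and the lower ones were Cd163 and C1qb.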
